A study of Danio rerio with 21 samples.

Results

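The lens crystallin genes of zebrafish (Danio rerio) were the 57 genes whose symbol named an alpha, beta or gamma crystallin, out of 26225 genes in the deposited table, of which 24087 had a symbol. A gene was taken when its symbol began with crya followed by a or b, with cryb followed by a or b, or with cryg followed by m, n, s or x. The 57 members fell into 8 subfamilies, with 32 gamma M, 7 beta A, 6 beta B, 4 gamma S, 3 gamma X, 2 gamma N, 2 alpha B genes and 1 alpha A gene. The 3 genes crygmx, crygmxl1 and crygmxl2 were kept apart from gamma M as gamma X. Of the 32 gamma M genes, 21 belonged to the numbered crygm2d series, crygm2d1 to crygm2d21, and 11 did not. In the gene order of the RefSeq annotation (assembly GRCz12tu, used for names and neighbours only), 34 members lay in a single run with at most 1 other gene between neighbours. That run held the 21 crygm2d genes, 10 of the other 11 gamma M genes, crygmxl1, crygs3 and crygs4. Further neighbouring pairs were crybb1 with cryba4, cryba1l1 with crybb1l1, cryba1l2 with crybb1l2, cryba1a with crybb1l3, and crygmx with crygmxl2.

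Crystallins are the proteins that fill the fibre cells of the eye lens and give it its refractive power. The alpha crystallins are small heat shock proteins that act as chaperones and keep other proteins from aggregating, and in mammals alpha B crystallin is also made outside the lens, in heart and skeletal muscle. The beta and gamma crystallins share the Greek key fold, with beta crystallins forming oligomers and gamma crystallins staying as monomers. The gamma M crystallins are rich in methionine and are the abundant gamma crystallins of the dense fish lens, and the gamma N crystallins stand between the beta and gamma families in structure. Fibre cells are laid down throughout life over the older ones, which lose their nuclei as they mature.

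RNA was taken from the whole body of AB strain zebrafish of a single family, with several fish collected at each age, about 60 mg of tissue per extraction and 3 libraries per group. Control fish stayed at 28 °C and were collected at 25 days post fertilisation (dpf, group C25D), 35 dpf (C35D), 45 dpf (C45D) and 60 dpf (C60D). The heated groups T35D, T45D and T60D came from fish of the same family that were moved to 35 °C from 25 to 35 dpf and returned to 28 °C afterwards, so that T35D was collected at the end of the heat and T45D and T60D after a return to 28 °C. The sex of the fish in a library was not given, and all fish carried the AB background with no transgene or mutation named. In whole-body RNA, fewer lens cells in the tissue and less crystallin RNA per lens cell cannot be told apart. Whether each portion of tissue taken for RNA held the head and eyes to the same extent is not given in the sources used here.

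The libraries held between 11875455 and 16471171 counts (median 13616146), so that 3 counts stood for 0.182 to 0.253 CPM (counts per 1000000 counts of the library). Some libraries stood apart before any group was compared. In the genes with at least 100 counts, C45D-3 lay at the midpoint of the other libraries of its group. It was fitted by 49.9% of C45D-1 with the remainder from C45D-2, with 1.58 times the variance of counting alone over 16496 genes. C60D-3 was fitted in the same way by 51.1% of C60D-1 with the remainder from C60D-2, with 1.61 times the counting variance over 14381 genes. For the other 19 libraries the closest mixture of any pair of libraries left at least 11.4 times the counting variance (C25D-2). C45D and C60D may thus hold less than 3 independent samples each, and their spread may be understated. Numbers of members called by edgeR that rest on these groups are given with and without C45D-3 and C60D-3. Shares, means, SDs, most single fold changes, DESeq2 calls and counts without overlap include both libraries. The methods call the replicates independent biological ones, but which fish went into which library is not given in the sources used here, and p-values measure the spread between these libraries.

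The crystallins took up to 0.979% of the counts of a library and as little as 0.000436%, a 2247-fold range. In C25D the members together held 0.541, 0.979 and 0.881% of the counts, with a mean of 0.80 ± 0.230% (SD, n = 3). In C45D they held 0.807, 0.576 and 0.692%, a mean of 0.692 ± 0.115% (SD, n = 3), and the range of C45D lay inside that of C25D. In C35D the values were 0.000775, 0.491 and 0.188%, with C35D-1 far below both other libraries of its group. In C60D the share was 0.000599, 0.00112 and 0.000642%, below every library of C25D and C45D. The heated groups were split within themselves. T35D held 0.867, 0.352 and 0.0253% of its counts in crystallins, T45D 0.000812, 0.292 and 0.000436% and T60D 0.565, 0.00141 and 0.127%. T45D-2 and T60D-2 were thus each the opposite of the other libraries of their group, T45D-2 being the high library of T45D and T60D-2 the low one of T60D.

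The 21 libraries fell on either side of a wide gap. In 14 libraries the members had at least 4162 counts (T35D-3), and in the other 7 they had at most 225 (T60D-2). The low libraries were C35D-1, the 3 libraries of C60D, T45D-1, T45D-3 and T60D-2. Wilson 95% intervals on the share, which cover counting error only, reached at most 3.04% of the value on either side in the 14 libraries and at most 24.5% in the 7. No crystallin was among the 100 most abundant genes of any library. Ranked by deposited FPKM, which corrects for gene length, the most abundant member was at best at place 154 (crygm2c in C45D-1). The members numbered 26, 36 and 35 among the 500 genes of highest FPKM in C25D and 28, 22 and 26 in C45D. Between 50 and 57 members had more than 3 counts in the libraries of C25D and C45D, against 4 to 11 in the 7 low libraries.

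**Figure D1:**
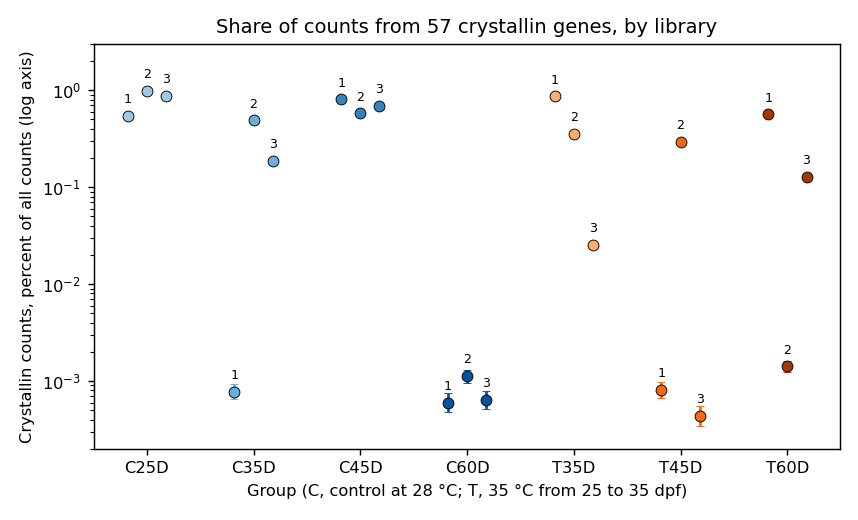
Percent of each library's counts (log axis) that fell on the 57 crystallin genes, by group along the horizontal axis, with 1 point per library numbered by replicate and bars for the Wilson 95% interval. C25D and C45D lie between 0.541% and 0.979%, the 3 libraries of C60D lie at or below 0.00112%, and C35D, T45D and T60D each hold libraries on both sides of the gap.

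The levels of the most abundant members of each subfamily followed this split, with differences between subfamilies. Values per library are CPM, in replicate order, and compare a gene with itself across libraries. The alpha A gene cryaa encodes a lens chaperone. At 28 °C, cryaa was at 40.2, 84.5 and 60.4 CPM in C25D, at 0.0680, 42.1 and 19.9 in C35D, at 81.6, 159.6 and 121 in C45D and at 0, 0.140 and 0 in C60D. In the heated groups it was at 87.0, 23.7 and 5.10 CPM in T35D, 0.0751, 25.3 and 0.0670 in T45D and 72.6, 0.126 and 14.5 in T60D. Its highest level was in C45D-2, and it was at or below 0.140 CPM in the 7 low libraries, which is less than 3 counts.

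The leading alpha B gene was the lowest of the leading members per length, with a mean FPKM over the 21 libraries of 7.01 for cryaba and 1.96 for cryabb against 31.9 for cryaa. At 28 °C, cryaba was at 1.77, 2.31 and 1.91 CPM in C25D, at 0, 2.66 and 1.39 in C35D, at 8.22, 35.1 and 20.4 in C45D and at 0, 0 and 0 in C60D. In the heated groups it was at 11.98, 1.35 and 0.121 CPM in T35D, 0.225, 3.97 and 0 in T45D and 15.5, 0.0629 and 4.74 in T60D. In the control libraries of 25 and 35 dpf it was at 2.66 CPM or less, T35D-1 was at 11.98, and the highest value was that of C45D-2. In the control groups, cryabb was at 1.29, 1.24 and 1.32 CPM in C25D, at 0.952, 1.96 and 0.990 in C35D, at 7.85, 18.5 and 13.4 in C45D and at 1.32, 1.40 and 1.91 in C60D. After heat it was at 2.68, 1.35 and 0.607 CPM in T35D, 0.827, 3.91 and 1.01 in T45D and 14.8, 1.13 and 2.4 in T60D. cryabb was at 0.607 CPM (T35D-3) or above in all 21 libraries. C60D, at 1.32 to 1.91 CPM, was close to C25D, at 1.24 to 1.32 CPM.

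Among the beta crystallins, cryba4 and crybb1 lie next to each other and had mean FPKM values of 309 and 291. At 28 °C, cryba4 was at 303, 533 and 461 CPM in C25D, at 0.204, 280.3 and 107 in C35D, at 414, 265 and 332 in C45D and at 0.0778, 0.628 and 0.0765 in C60D. In the heated groups it was at 442, 177 and 14.0 CPM in T35D, 0.150, 132 and 0.201 in T45D and 233, 0.440 and 51.0 in T60D. The level of cryba4 was highest in C25D-2, and the libraries of C25D and C45D overlapped. In controls, crybb1 was at 437, 704 and 628 CPM in C25D, at 0.204, 379 and 144 in C35D, at 502, 258 and 387 in C45D and at 0.311, 2.23 and 1.15 in C60D. With heat it was at 707, 331 and 21.1 CPM in T35D, 1.2, 175 and 0.335 in T45D and 167, 0.126 and 37.8 in T60D. It followed cryba4 closely and was highest in T35D-1 and C25D-2. For cryba1l1 (mean FPKM 241), C25D was at 321, 590.3 and 489 CPM, C35D at 0.952, 282 and 108, C45D at 421, 247 and 339 and C60D at 0.778, 1.68 and 0.917. In heated fish it was at 476, 156 and 17.5 CPM in T35D, 0.601, 159 and 0.469 in T45D and 182, 1.95 and 42.3 in T60D. It was, with cryabb, one of the 2 members above 3 counts in each of the 7 low libraries. For crybb1l2 (mean FPKM 204), C25D was at 308, 568 and 519.8 CPM, C35D at 0.476, 292 and 112, C45D at 519.7, 393 and 478 and C60D at 0.467, 0.0698 and 0.229. After the heat it was at 571, 244 and 19.6 CPM in T35D, 0.526, 231 and 0.134 in T45D and 365, 0.314 and 55.8 in T60D. The values of C25D and C45D overlapped for all 4 of these beta crystallins.

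The gamma M genes crygm2c and crygm1 had mean FPKM values of 263 and 218, and both were lower in the C25D than in the C45D libraries, unlike the 4 beta crystallins above. At 28 °C, crygm2c was at 56.0, 136 and 149 CPM in C25D, at 0, 106 and 40.0 in C35D, at 418, 276 and 337 in C45D and at 0.156, 0.0698 and 0 in C60D. In the heated groups it was at 388, 228 and 4.37 CPM in T35D, 0, 173 and 0.0670 in T45D and 173, 0.126 and 29.1 in T60D. Every C45D library was above every C25D library. In the controls, crygm1 was at 62.9, 109.9 and 93.5 CPM in C25D, at 0.0680, 117 and 44.9 in C35D, at 326, 258 and 293 in C45D and at 0, 0.0698 and 0 in C60D. In heated groups it was at 265, 165 and 1.58 CPM in T35D, 0.150, 124 and 0.134 in T45D and 263, 0 and 56.2 in T60D. T35D-3, whose total crystallin count was on the high side of the gap, was at 1.58 CPM for crygm1 and below C25D for both genes. The gamma N genes crygn2 (mean FPKM 139) and crygn1 (57.9) parted from each other. For crygn2, C25D was at 192, 355 and 298 CPM, C35D at 0, 185 and 65.7, C45D at 266, 172 and 227 and C60D at 0.0778, 0.209 and 0.0765. After heat it was at 303, 124 and 8.74 CPM in T35D, 0.0751, 108 and 0 in T45D and 127, 0.0629 and 16.7 in T60D. For crygn1, C25D was at 28.2, 64.2 and 51.3 CPM, C35D at 0.136, 43.0 and 15.5, C45D at 121, 119 and 121 and C60D at 0.0778, 0.279 and 0.229. With heat it was at 66.0, 40.1 and 1.52 CPM in T35D, 0.0751, 44.5 and 0 in T45D and 111, 0.692 and 36.9 in T60D. The C45D values of crygn1 were all above those of C25D, while those of crygn2 overlapped.

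The gamma S genes were close to undetected in young fish. Gamma S crystallin is in mammals a crystallin of the outer, younger lens fibres. At 28 °C, crygs4 was at 0.322, 0.412 and 0.441 CPM in C25D, at 0, 1.12 and 0.0660 in C35D, at 26.7, 92.4 and 62.2 in C45D and at 0, 0.209 and 0 in C60D. In the heated groups it was at 9.90, 6.57 and 0 CPM in T35D, 0.0751, 19.7 and 0 in T45D and 214, 0 and 51.2 in T60D. The highest values were in T60D-1 and C45D-2, and the C25D libraries held 4 to 6 counts each. Under control conditions, crygs3 was at 0, 0.165 and 0.0734 CPM in C25D, at 0, 2.38 and 0.396 in C35D, at 64.2, 117 and 93.2 in C45D and at 0, 0 and 0 in C60D. In fish that had been heated it was at 9.53, 2.36 and 0 CPM in T35D, 0, 19.9 and 0 in T45D and 78.7, 0 and 30.3 in T60D. The 3 libraries of C25D together held 3 counts of crygs3, those of C45D 3607. The gamma X genes crygmx (mean FPKM 168) and crygmxl2 (64.0) lie next to each other. For crygmx, C25D was at 169, 293 and 225 CPM, C35D at 0.0680, 155 and 56.7, C45D at 275, 263 and 277 and C60D at 0, 0.0698 and 0. In heated libraries it was at 257, 63.3 and 9.35 CPM in T35D, 0.526, 82.2 and 0 in T45D and 213, 0.0629 and 60.7 in T60D. For crygmxl2, C25D was at 68.2, 118 and 116 CPM, C35D at 0, 62.6 and 21.4, C45D at 106, 50.6 and 79.0 and C60D at 0, 0 and 0. In heated samples it was at 111, 47.2 and 3.52 CPM in T35D, 0, 42.5 and 0.0670 in T45D and 64.9, 0.0629 and 11.8 in T60D. For both genes C25D and C45D overlapped, and C60D was at or below 0.0698 CPM.

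Over all 57 members, the library of highest CPM was C25D-2 for 25 members, C25D-3 for 5, C45D-1 for 8, C45D-2 for 5, T35D-1 for 4 and T60D-1 for 10. The least abundant member by mean FPKM over the 21 libraries was cryabb (1.96), followed by crybb1l3 (3.99) and cryaba (7.01). This order differed between groups. In C25D, crygs3 at 0, 0.33 and 0.15 FPKM and crygs1 at 0.28, 0.43 and 0.26 were below cryabb at 0.63, 0.64 and 0.70, and in the 7 low libraries cryabb held 14.4% of the crystallin counts. Within the crygm2d series the mean FPKM ranged from 10.7 (crygm2d6) to 217 (crygm2d10). The reads were assigned by an estimator that shares reads between near-identical genes, and 48.3% of the deposited crygm2d values were not whole numbers, against 20.4% over all members and 10.6% over all genes. The level of a single crygm2d gene is therefore uncertain, and the series is described mainly as a whole.

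**Figure D2:**
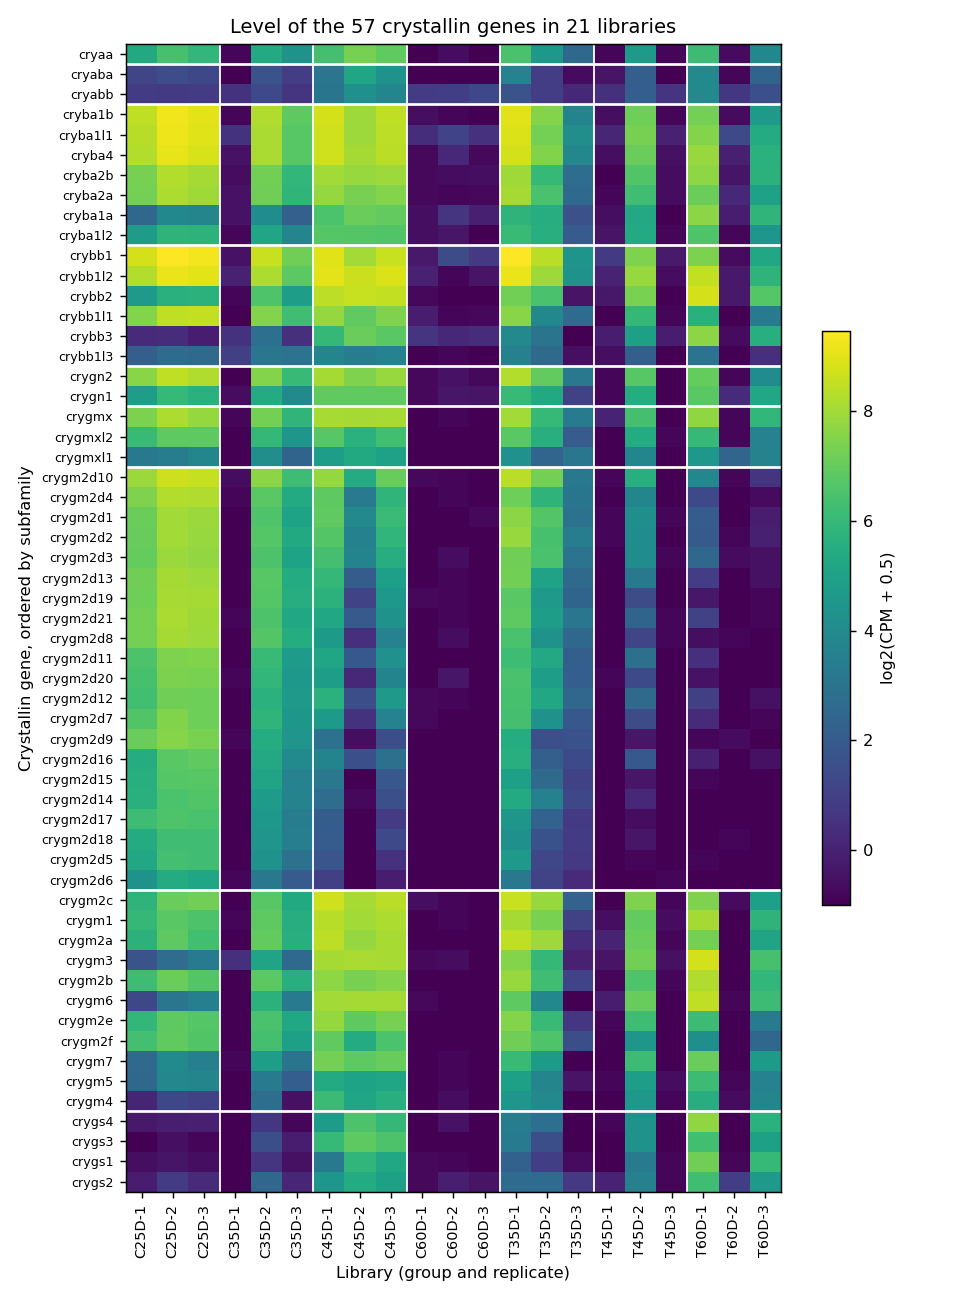
Level of each of the 57 crystallin genes (rows, ordered by subfamily) in each of the 21 libraries (columns), as log2(CPM + 0.5) on the colour scale. The columns of C35D-1, C60D-1 to C60D-3, T45D-1, T45D-3 and T60D-2 are dark in nearly all rows, and the gamma S rows are dark in C25D, where crygs4 is below 0.5 CPM, and light in C45D, where it is at 26.7 to 92.4 CPM.

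Within the crystallin counts the order of the subfamilies differed with age. Only the 14 libraries with at least 1000 crystallin counts were used for this, so C60D was left out. The 21 crygm2d genes made up 40.9, 40.9 and 42.4% of the crystallin counts in C25D and 29.7 and 31.1% in C35D-2 and C35D-3. They made up 12.5, 1.93 and 7.68% in C45D, so that every C45D library was below every C25D library. With heat they made up 24.0, 21.2 and 36.9% in T35D, 5.16% in T45D-2 and 0.637 and 0.228% in T60D-1 and T60D-3. The other 11 gamma M genes took the reverse order. Their part was 7.44, 8.0 and 7.58% in C25D, 15.5 and 14.7% in C35D-2 and C35D-3, and 30.1, 31.2 and 30.0% in C45D. After heat it was 22.9, 28.5 and 4.97% in T35D, 35.2% in T45D-2 and 35.6 and 31.7% in T60D-1 and T60D-3. T35D-3, with its 4.97%, lay below the C25D libraries.

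The 4 gamma S genes went from 0.0164, 0.0219 and 0.0158% of the crystallin counts in C25D to 0.196 and 0.0667% in C35D-2 and C35D-3 and 1.51, 5.40 and 3.21% in C45D. They stood at 0.341, 0.459 and 0.505% in T35D, 2.08% in T45D-2 and 9.11 and 13.4% in T60D-1 and T60D-3, the highest values of the 14 libraries. Over the same 14 libraries beta A held 21.4 to 24.7%, beta B 17.1 to 22.9%, gamma N 3.96 to 5.22%, gamma X 3.27 to 8.27% and alpha A 0.674 to 2.77%. Alpha B ran from 0.0362 to 0.930%, and both of its genes were higher in every C45D than in every C25D library. Per crystallin count, 27 of the 57 members were higher in all C45D than in all C25D libraries and 28 were lower, with 2 overlapping (crygm2f and crygmxl2). Scaled in the same way, 10.6% of all genes with a count were higher without overlap and 8.6% lower. All 21 crygm2d genes were among the lower ones, and the 4 gamma S genes and 10 of the 11 other gamma M genes among the higher ones. These are parts of a whole, so a rise of any subfamily lowers the percentage of the others.

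**Figure D3:**
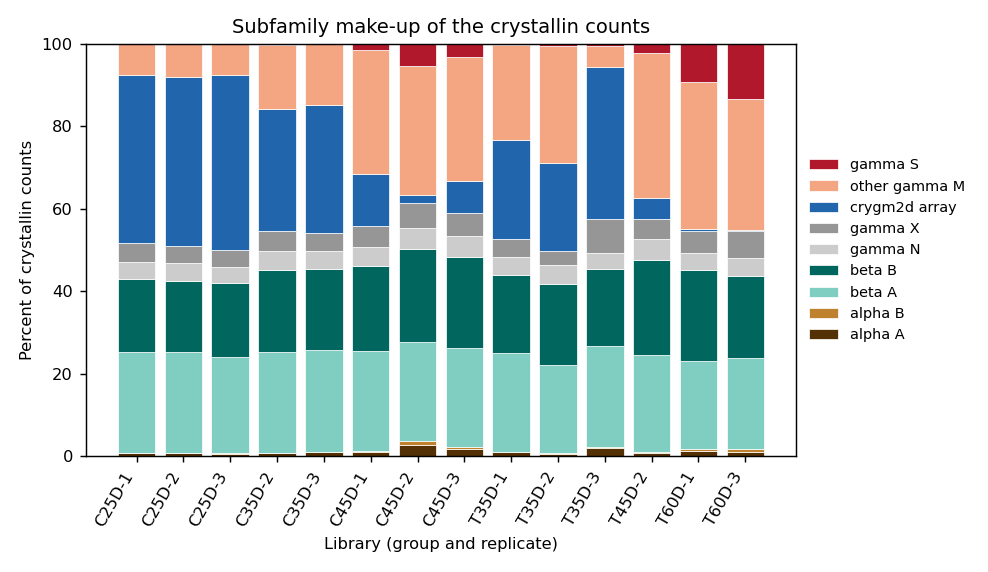
Percent of the crystallin counts taken by each subfamily in the 14 libraries with at least 1000 crystallin counts, drawn as stacked bars from 0 to 100%. The crygm2d part is 40.9 to 42.4% in C25D, 1.93 to 12.5% in C45D and at most 0.637% in T60D-1 and T60D-3, while gamma S reaches 13.4% in T60D-3.

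Each member was tested between 25 and 45 dpf in control fish, and no test compared the subfamilies. This comparison was added after the data had been seen, because both groups had crystallin counts in all their libraries. Of 57 members, 36 passed the test (edgeR quasi-likelihood test, Benjamini-Hochberg adjusted p at or below 0.05 over 20407 genes). Gamma S and most gamma M genes outside crygm2d rose, 13 crygm2d genes fell, and most beta crystallins did not pass the test. In all, 23 members rose, against 13.4% of all genes tested, and 13 fell, against 11%. Members could pass the filter on counts through a single group, as the gamma S genes did through C45D and crygm2d6 through C25D. These counts therefore support nothing by themselves. The median log2 fold change of the members was -0.17, beside 0.0042 over all genes tested, with a range from -5.55 to 10.10.

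All 4 gamma S genes rose. crygs3 rose by 10.10 (SE 0.36) on the log2 scale (edgeR adjusted p = 1.04e-05). Its adjusted p was 0.184 in a single fit of all 21 libraries (edgeR). It passed the filter on counts through C45D alone, so neither p supports anything by itself. Its counts of 3607 against 3 gave a ratio of 1161 with a 95% counting interval of 397 to 5630. crygs4 rose by 7.28 (SE 0.50), crygs1 by 7.53 (SE 0.84) and crygs2 by 5.34 (SE 0.31). The values behind crygs1 were 0.161, 0.247 and 0.147 CPM in C25D and 8.88, 59.0 and 36.6 CPM in C45D. Those behind crygs2 were 0.403, 1.32 and 0.734 CPM and 22.1, 42.3 and 30.3 CPM. For every gamma S gene the lowest C45D library was above the highest C25D library. Here and in the next sentences, members outside the rule for named genes were chosen after their values had been seen, to show the extent of each subfamily.

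Of the 11 gamma M genes outside crygm2d, 9 rose and none fell. crygm3 rose by 5.62 (SE 0.36), from 2.66, 6.18 and 9.33 CPM in C25D to 268, 281 and 269.7 CPM in C45D. crygm6 rose by 5.36 (SE 0.48), from 1.93, 8.07 and 10.9 to 257, 264 and 264 CPM. crygm4 rose by 5.40 (SE 0.45) and crygm7 by 3.79 (SE 0.34). The abundant members rose less, crygm2c by 1.75 (SE 0.35) and crygm1 by 1.85 (SE 0.23). crygm2e had a log2 fold change of 0.99 (SE 0.32) with an adjusted p of 0.0596 (edgeR) and crygm2f one of -0.10 (SE 0.38), and neither passed the test.

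The crygm2d series moved the other way. All 21 genes had log2 fold changes below 0, from -5.55 to -1.18, and 13 of them passed the test. crygm2d6, the least abundant, was at 19.7, 42.5 and 36.1 CPM in C25D and 1.48, 0 and 0.381 CPM in C45D, and fell by 5.55 (SE 0.64) on the log2 scale. crygm2d10, the most abundant, was at 236, 410.3 and 373 CPM in C25D and 223, 43.3 and 129 CPM in C45D, a log2 fold change of -1.18 (SE 0.55) that did not pass (edgeR adjusted p = 0.154). In all 21 genes the C45D libraries were below the C25D libraries, and C45D-2 was the lowest, as in the part of the whole above.

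Among the beta crystallins, 5 of 13 rose and none fell. crybb3 rose by 7.45 (SE 0.33), from 0.725, 0.742 and 0.367 CPM in C25D to 63.0, 134 and 110.0 CPM in C45D. cryba1a rose by 3.54 (SE 0.31), crybb2 by 3.24 (SE 0.25), crybb1l3 by 1.29 (SE 0.22) and cryba1l2 by 1.28 (SE 0.23). The most abundant beta genes were near 0, with log2 fold changes of -0.22 (SE 0.27) for cryba4, -0.48 (SE 0.31) for crybb1 and -0.33 (SE 0.29) for cryba1l1, none of which passed the test. In the alpha subfamilies cryaba rose by 3.45 (SE 0.45), cryabb by 3.43 (SE 0.28) and cryaa by 1.05 (SE 0.26). In gamma N crygn1 rose by 1.45 (SE 0.25), and crygn2 had a log2 fold change of -0.21 (SE 0.27). In gamma X crygmxl1 rose by 1.70 (SE 0.14), and crygmx had a log2 fold change of 0.36 (SE 0.20).

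Groups that did not overlap in CPM numbered 23 higher and 21 lower among the 57 members, against 13.7% and 22.2% of all genes. Without C45D-3, 28 members passed, 21 higher and 7 lower, and cryaa did not (adjusted p = 0.0797, edgeR). In a single fit of all 21 libraries, where the spread was estimated with the split groups, no member passed by edgeR, with 8 higher and 8 lower at an unadjusted p below 0.05, while DESeq2 on the 6 libraries of C25D and C45D called 24 higher and 11 lower, against 12.4% and 9.94% of all genes.

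**Figure D4:**
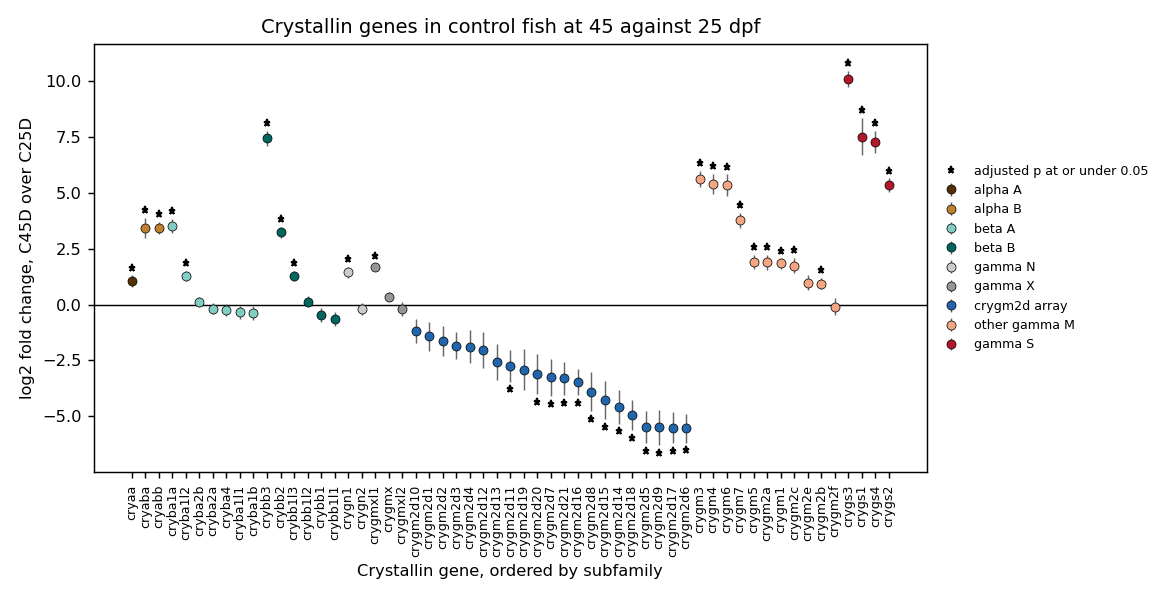
Log2 fold change of C45D over C25D for each of the 57 crystallins, grouped by subfamily, with bars for 1 standard error and a star beside members that passed the edgeR test. The 21 crygm2d genes lie between -5.55 and -1.18, the 4 gamma S genes between 5.34 and 10.10.

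Between 25 and 35 dpf no crystallin passed the edgeR test among 54 tested, against 0.181% higher and 0.0538% lower of all genes. At an unadjusted p below 0.05 edgeR gave 1 higher member (crybb3) and 3 lower ones (crygm2d5, crygm2d6 and crygm2d17), against 13.6% and 12.7% of all genes. DESeq2 called 0 members after adjustment, against 6.06% higher and 7.17% lower of all genes. The median log2 fold change was -1.77, beside 0.05 over all genes. crygm2d6 had the smallest p (0.0131, adjusted 0.120, edgeR), with a log2 fold change of -2.96 (SE 0.89). Its values were 19.7, 42.5 and 36.1 CPM in C25D and 0.0680, 8.56 and 3.56 CPM in C35D. Without overlap, 31 members were lower, all 21 crygm2d genes among them, and 1 was higher, against 17.1% and 8.67% of all genes. Without the low library C35D-1, 16 members were called lower by edgeR. C35D-1 was singled out by its crystallin level, so this count supports nothing by itself.

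From 35 to 45 dpf in controls, 5 of 57 members rose, against 1.5% of all genes tested, and none fell, against 3.55%. They were 3 of the 4 gamma S genes, crygs4 at 7.14 (SE 0.91), crygs3 at 6.59 (SE 0.90) and crygs1 at 6.23 (SE 0.97), together with the beta gene crybb3 at 5.18 (SE 0.71) and the chaperone gene cryabb at 3.19 (SE 0.32). The gamma S genes called here passed the filter on counts through C45D alone, so the number called supports nothing by itself. cryabb had the smallest adjusted p (0.0175, edgeR), and its C45D libraries were all above its C35D libraries. The members had a median log2 fold change of 1.5, beside -0.01 over all genes. In 28 members all C45D libraries were above all C35D libraries, against 14.5% of all genes. The calls depended on single libraries. Without C45D-3, or without C45D-2, no member passed by edgeR, with 12 higher at an unadjusted p below 0.05 in each fit. The number called was 15 without C35D-1, 9 without C35D-2 and 2 without C35D-3. C35D-1 was singled out by its crystallin level, so the count without it supports nothing by itself. At an unadjusted p below 0.05 edgeR gave 13 higher members with all libraries, against 9.67% of all genes, and DESeq2 called 9, against 4.88%. In a single fit of all 21 libraries edgeR called none, with 9 at an unadjusted p below 0.05.

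Of the age comparisons in controls, that between 45 and 60 dpf had the median fold change farthest from 0. All 49 members tested fell, and 8 crygm2d genes had too few counts to be tested. The members passed the filter through their C45D counts, so this count supports nothing by itself, and 18.2% of all genes tested fell. cryba2b, an acidic beta crystallin, had the smallest p, with 261, 233 and 247 CPM in C45D and 0.0778, 0.140 and 0.153 CPM in C60D, and fell by 10.55 (SE 0.35) on the log2 scale (edgeR adjusted p = 0.000139). For 11 of the 49 no count was seen in any C60D library, so a fold change is a lower bound, taken against 3 counts per library. The bounds were at least 1248-fold lower for crygm2a, at least 814-fold lower for crygm2b, at least 409-fold lower for crygs3 and at least 94.8-fold lower for cryaba. With such genes at their bound the median log2 fold change of the members was -9.43, and -10.55 as fitted, beside 0.04 over all genes. cryabb fell by 2.71 (SE 0.35), the smallest change of the 49. cryaa, with 4756 counts in C45D and 2 in C60D, gave a ratio of 2422 with a 95% counting interval of 670.0 to 20001.

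Without overlap 52 of 57 members were lower in C60D, against 30.6% of all genes. Of the lists of other tissues, some were low in the same group and others were not. A list of 14 liver genes summed to between 10104 and 21094 CPM in C45D and between 244 and 1027 in C60D, with 13 of the 14 lower without overlap. A list of 13 pancreas genes summed to between 365 and 4794 CPM in C45D and between 4.43 and 741 in C60D. These sums overlapped, and 2 of the 13 were lower without overlap, a smaller share than over all genes. In a list of 11 epidermis genes 1 was lower without overlap, and in a list of 21 skeletal muscle genes 7 were lower and 4 higher. For epidermis and muscle the C60D sums ran from below to above those of C45D. The part of these tissues in the result was not tested. Without C45D-3 the edgeR test called 45 of 49 members lower, and without C60D-3 44 of 56. With both libraries left out, 22 of 49 passed, among them 8 of the 11 gamma M genes outside crygm2d, 4 of 7 beta A and 4 of 6 beta B genes, and none of 13 crygm2d genes, of which 13 had passed with all libraries. All 49 had an unadjusted p below 0.05 in that fit, and DESeq2 with all libraries called 55 of 57, against 17.1% lower of all genes. Members entered the fits with libraries left out through their C45D counts, so those counts support nothing by themselves. No test compared the subfamilies, and the crygm2d part of the crystallin counts was 12.5% in C45D-1 and 1.93% in C45D-2.

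The heated groups were compared with the control of the same age to ask whether the 35 °C exposure changed gene expression. At the end of the exposure no crystallin passed the edgeR test among 57 tested, and DESeq2 called 0. Over all genes edgeR called 0%, and DESeq2 5.31% higher and 3.12% lower. No member had an unadjusted p below 0.05 by edgeR, against 15.8% higher and 8.33% lower of all genes. The median log2 fold change was 1.14, beside 0.27 over all genes, and 52 members were above 0. The share of all genes above 0 is not given here, so the 52 support nothing by themselves. The chaperone genes were at 1.15 (SE 1.45) for cryaa and 1.93 (SE 1.54) for cryaba. The beta genes were at 0.99 (SE 1.67) for cryba4 and 1.3 (SE 1.73) for crybb1. The gamma genes were at 2.37 (SE 1.91) for crygm2c, 1.08 (SE 1.79) for crygn2, 4.06 (SE 1.77) for crygs4 and 0.91 (SE 1.66) for crygmx. crygs4 had the smallest p (0.0520, adjusted 0.210, edgeR). The groups overlapped for all 57 members, whereas 4.3% of all genes were higher and 14.5% lower without overlap. Leaving out T35D-1 turned the median to -0.29. The liver list summed to between 3505 and 16551 CPM in T35D and between 26363 and 30829.9 in C35D, with 13 of 14 genes lower without overlap, and its part in these values was not tested.

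At 45 dpf, after the return to 28 °C, no crystallin passed the edgeR test among 50 tested, and 7 crygm2d genes were not tested. Again edgeR called 0% of all genes. All 50 members had a log2 fold change below 0, with a median of -2.83 beside 0.12 over all genes. Members could pass the filter on counts through C45D alone, so this direction supports nothing by itself. At an unadjusted p below 0.05 edgeR gave 5 lower members (cryaba, cryabb, crygm2d8, crygm2d19 and crygm2d20), against 10.5% of all genes. DESeq2 called 1 (cryabb), against 2.52% lower of all genes. The alpha genes were at -3.63 (SE 1.74) for cryaa and -3.59 (SE 1.3) for cryaba, and cryabb at -2.26 (SE 0.56) had the smallest p (0.00534, adjusted 0.213, edgeR). The beta genes were at -2.81 (SE 2.00) for cryba4 and -2.58 (SE 1.81) for crybb1. The gamma genes were at -2.45 (SE 2.24) for crygm2c, -2.50 (SE 2.13) for crygn2, -2.96 (SE 1.73) for crygs4 and -3.15 (SE 1.97) for crygmx. T45D-2 carried nearly all the crystallin counts of its group, 0.292% of its counts against at most 0.000812% in T45D-1 and T45D-3. Without it edgeR called 40 of 56 members lower, with a median of -9.65. The library was singled out by its crystallin level, so this count supports nothing by itself. With all libraries 35 members were lower without overlap, none of them crygm2d, against 31.6% of all genes. Without C45D-3 edgeR called 0 of 50, with 2 lower at an unadjusted p below 0.05.

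At 60 dpf the direction was the reverse, and again no member passed the edgeR test. Only 7 members had enough counts to be tested (cryabb, cryba1a, cryba1l1, crybb1, crybb3, crygs2 and crygmxl1), and 0% of all genes were called. All 7 were above 0 and 6 had an unadjusted p below 0.05, against 19% of all genes in that direction. crygs2 and crygmxl1 passed the filter on counts through T60D alone, so these counts support nothing by themselves. crygmxl1 had the smallest p (0.000372, adjusted 0.127, edgeR). It was at 23.6, 4.84 and 12.3 CPM in T60D and had no count in C60D, at least 60.6-fold higher taken against 3 counts per library. crybb1, the only leading member of a subfamily that was tested, had a log2 fold change of 5.62 (SE 1.96) with an adjusted p of 0.144 (edgeR). The 7 had a median of 6.72 as fitted and 5.96 with crygmxl1 at its bound, beside 0.12 over all genes. DESeq2, which assigned an adjusted p to 40 members, called 36 higher, against 11.9% of all genes with one. Most of these members had few or no counts in C60D and could be assigned an adjusted p through T60D alone. This count therefore supports nothing by itself. Without T60D-2, the low library of the group, edgeR called 33 of 37 members higher. T60D-2 was singled out by its crystallin level, so this count supports nothing by itself. Without T60D-1 edgeR called 2 of 7, and without C60D-3 it called 0 of 37, with 32 higher at an unadjusted p below 0.05. The members tested only without C60D-3 passed the filter through T60D, so that count supports nothing by itself. With no filter on counts edgeR called 0 of 54, with 39 at an unadjusted p below 0.05. Most of the 54 had few or no counts in C60D, so the 39 support nothing by themselves. Without overlap 10 members were higher in T60D (cryaba, cryba1l1, cryba2a, cryba2b, crybb2, crygm2d2, crygn1, crygs2, crygmxl1 and crygmxl2), against 12.8% of all genes.

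The difference between heated and control fish at 60 dpf was set against that at 45 dpf in a single fit of the 18 libraries from 35 dpf on. No member passed by edgeR, as for 0% of all genes, and 43 had an unadjusted p below 0.05, against 11.6% of all genes. For 3 members (crygm2d6, crygm2d14 and crygm2d17) no library of 60 dpf held a count, so their difference could not be estimated. The other 54 had a positive difference, with a median of 10.83 beside 0.05 over all genes. In several of these, cryaba, crygm2a and crygs3 among them, C60D held no count, so their fitted difference rests on the floor. The median includes such values. Members could pass the filter on counts through groups where they were high, so this direction supports nothing by itself. crygs1 had the smallest p, with a difference of 13.51 (SE 3.15) on the log2 scale and an adjusted p of 0.117 (edgeR). Its values were 0, 9.73 and 0.0670 CPM in T45D against 8.88, 59.0 and 36.6 in C45D, and 146, 0.0629 and 63.7 in T60D against 0.0778, 0.0698 and 0 in C60D. C60D held 2 counts of crygs1 in all, so this fitted difference is not a bound but rests on very few counts. DESeq2 called 38 members, against 5.59% of all genes. Without T45D-2 edgeR called 33 and without T60D-2 it called 16. Both libraries were singled out by their crystallin level, so these counts support nothing by themselves. With C45D-3 and C60D-3 left out edgeR called 0, with 34 at an unadjusted p below 0.05.

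A small residue of crystallin counts remained in the 7 low libraries, and it was not spread over the members as in the others. cryabb had 11 to 25 counts in these libraries (0.827 to 1.91 CPM) and cryba1l1 had 7 to 31. These were the 2 members above 3 counts in all 7. crybb3 passed 3 counts in 6 of the 7 and crybb1 in 5, whereas 36 members passed it in none and 8 members had no count in any. crygmxl1 had 77 counts in T60D-2, 34.2% of the crystallin counts of that library, and none in the other 6 low libraries. It also stood out in T35D-3, where it made up 3.17% of the crystallin counts, against at most 0.962% in the other 13 of the 14 libraries. A list of 15 oocyte genes summed to 9725 CPM in T60D-2, 16751 in T35D-3, 20894 in T35D-2, 14715 in T45D-2 and 9522 in T60D-3. In CPM, crygmxl1 was at 4.84, 8.01, 4.88, 13.6 and 12.3 in these libraries, in the same order. In C45D, where the oocyte list summed to at most 70.5 CPM, crygmxl1 was at 27.8, 40.3 and 31.7 CPM. In C60D, where that list summed to at most 76.9 CPM, it was at 0. The part of ovary content in the crygmxl1 values was not tested.

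Other genes of the eye were low in the same libraries. A list of 42 retina genes (photoreceptor opsins, transducins, arrestins and their partners) summed to 3725, 5550.1 and 4229 CPM in C25D and 3685, 2363 and 2974 in C45D, and to 17.0, 26.1 and 23.5 in C60D. The sum was 10.9, 2623 and 967 CPM in C35D, 4880.1, 1869.7 and 209 in T35D, 51.2, 1119.8 and 8.04 in T45D and 3889, 35.5 and 839.7 in T60D. The rod opsin gene rho was at 12.8, 334 and 0.603 CPM in T45D and 1379, 0.126 and 331 in T60D, so the high and low libraries were those of the crystallins. Crystallin CPM divided by retina CPM was 1.21 to 2.60 in the 14 libraries and 0.159 to 0.713 in the 7. Without overlap, 41 of 42 retina genes were lower in T45D than in C45D, against 31.6% of all genes. In C60D against C45D 41 were lower (30.6% of all genes), and in C35D against C25D 36 (17.1%). In C45D against C35D 27 were higher (14.5%), and in T60D against C60D 10 (12.8%). Over the 21 libraries, which fall into a low and a high set, the log2 sum of the list had a Pearson r of 0.99 with that of the crystallins, given as a description.

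The lens itself was marked by a list of 19 genes found in the table. Among its defining members, mipa encodes aquaporin 0, bfsp2 a beaded filament protein and grifin a lens galectin. mipa was at 40.6, 77.0 and 52.4 CPM in C25D and 47.2, 73.5 and 64.7 in C45D, and at 1.32, 0.558 and 1.61 in C60D. mipb, its paralogue, was at 0 in all 7 low libraries and at 2.11 CPM or more in the other 14. The list summed to between 217 and 417 CPM in C25D, 20.9 and 294 in C35D, 288 and 384 in C45D, and 31.4 and 86.2 in C60D. It summed to between 306 and 1076 CPM in T35D, 14.1 and 804 in T45D, and 269 and 455 in T60D. caprin2 alone reached 888.5 CPM in T35D-3, 533 in T45D-2 and 354 in T60D-2, libraries that were high in the oocyte list. Without caprin2 and tdrd7a, left out after their values had been seen, the Pearson r of the list with the crystallins over the 21 libraries was 0.94, against 0.74 with them. In T45D 15 of the 19 genes were lower than in C45D without overlap, against 31.6% of all genes. In C60D 14 were, against 30.6%. A second list, of 13 lens regulator genes, had a Pearson r of 0.69 with the crystallins. It summed to 222 to 250 CPM in C25D, 139 to 214 in C35D, 196 to 205 in C45D and 43.4 to 91.4 in C60D. In heated fish it summed to 57.3 to 253 CPM in T35D and 40.6 to 170 in T60D. Within T45D, the low library T45D-1 was at 105 CPM, T45D-2 at 70.2 and T45D-3 at 56.8.

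A list of 23 brain genes summed to 256 to 634 CPM in the 7 low libraries and to 187 to 2274 CPM in the other 14, and its Pearson r with the crystallins over the 21 libraries was 0.78. By group the sum was 1698 to 2274 CPM in C25D, 256 to 1359 in C35D, 1508 to 1814 in C45D and 566 to 634 in C60D. It was 187 to 1860 CPM in T35D, 312 to 601 in T45D and 276 to 2196 in T60D. The lowest sum was that of T35D-3, which had crystallin counts. All 23 genes were lower in T45D than in C45D without overlap, against 31.6% of all genes. In C60D against C45D 22 were lower (30.6% of all genes), and in C35D against C25D 21 (17.1%). The oocyte list summed to 9.55 to 20.9 CPM in C25D, 108 to 2964 in C35D, 8.59 to 70.5 in C45D and 3.50 to 76.9 in C60D. In heated fish it summed to 19.7 to 20894 CPM in T35D, 9.52 to 14715 in T45D and 68.9 to 9725 in T60D, and its Pearson r with the crystallins was 0.03. The liver list summed to between 143 and 22323 CPM in T45D and between 313 and 25941 in T60D, and its Pearson r was 0.70. The part of eye, brain, liver and ovary content in the differences between groups was not tested.

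**Figure D5:**
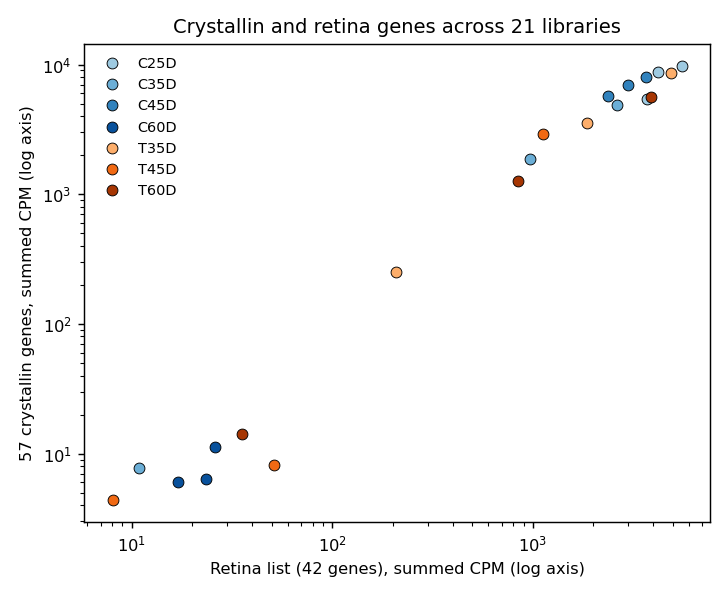
Summed crystallin CPM (vertical, log axis) against the summed CPM of 42 retina genes (horizontal, log axis), with 1 point per library and colours for the 7 groups. The 14 libraries rich in crystallin lie at 209 CPM or more of retina RNA, and the 7 poor ones at 51.2 CPM or less.

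Among all genes outside the rule, the 10 whose log2 CPM followed the crystallin sum most closely over the 21 libraries were, by Pearson r, crybgx (0.994), gngt2b (0.991), zgc:153846 (0.990), opn1sw1 (0.990), arr3a (0.988), prph2b (0.988), rom1a (0.987), inaa (0.987), pdcb (0.986) and gnat2 (0.986). crybgx is a further gene of the beta and gamma crystallin superfamily. It was at 61.9, 120.0 and 115 CPM in C25D, 120.4, 66.4 and 94.6 in C45D and 0 in all 3 libraries of C60D. gngt2b and gnat2 encode the gamma and alpha subunits of cone transducin, opn1sw1 the ultraviolet cone opsin and arr3a a cone arrestin. prph2b and rom1a encode proteins of the photoreceptor outer segment discs, and pdcb a phosducin. The points share the 2 sets of libraries, which set most of the likeness, and no p is given. Among the crystallins themselves, the members least like the sum, which includes them, were cryabb (r = 0.505), crygs1 (0.562), crybb3 (0.590), crygm2d6 (0.603) and crygs3 (0.612).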

How the data were processed

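Whole-body poly(A) RNA of 21 zebrafish libraries, 3 in each of 7 groups, was sequenced as single-end reads on BGISEQ-500. Reads were filtered with SOAPnuke, and the authors aligned them with Bowtie2 2.2.5 to the GRCz11 RefSeq coding genes and deposited the RSEM 1.2.12 expected counts per gene. HISAT2 2.0.4 and DESeq2 1.4.5 are also named in the submitters' processing notes. The authors also deposited FPKM per gene, which were used only to compare genes of different length. Estimated counts of near-identical genes share reads, so single crygm2d levels are uncertain. Gene IDs were matched to symbols for 24087 of 26225 genes.

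Expected counts were rounded to whole numbers and tested with the edgeR 4.0.16 quasi-likelihood test (R 4.3.3, TMM factors, filterByExpr, only the groups compared, Benjamini-Hochberg over all genes tested, adjusted p at or below 0.05). CPM per library used the plain library total. Log2 CPM for correlations had a prior count of 0.5. Each heated group was compared with the control of its age, each control with the preceding age and C45D with C25D, the last added after the data had been seen. Alternatives were DESeq2 1.42.0, its size factors in edgeR, library size only, TMM without crystallins, no filter on counts, a replicate block, a single fit of all libraries and each library left out in turn. The fits were also run on simulated counts in which the replicates of a group shared the same mean. The crystallins were split within groups, so that check does not cover them.

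The members, gene lists and tests were chosen with earlier results of these data known. Values per library are given for the 2 members of highest mean FPKM in each subfamily. Fold changes are given for the top member of each subfamily in the heat comparisons and for the member of smallest p. Same-numbered libraries deviated together in every pair only for C35D and C25D (r = 0.168, 0.171 and 0.118) and for C60D and C45D (r = 0.369, 0.226 and 0.181). The main tests were unpaired, and the replicate block was an alternative. C45D-3 and C60D-3 lay near the midpoint of their own groups, so the r values of the C60D and C45D pairs are not independent of each other. Whether the labels' numbers mark shared tanks or days is not given in the sources used here. Intervals cover counting error only. For fits with libraries left out, the share of all genes called is not given here.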

Additional observations from a re-analysis of the deposited data

How the results depend on the processing

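Counts of called crystallins and their medians moved little under DESeq2 size factors and under TMM without crystallins, where no count of members called moved by over 1.5 times. DESeq2 called 1 member for T45D against C45D, 36 for T60D against C60D, 9 for C45D against C35D and 38 for the difference of the heat effects between 60 and 45 dpf, where edgeR called 0, 0, 5 and 0. The cause was not tested. A fit of all 21 libraries called 25 for T60D against C60D, 0 for C45D against C35D and 0 for C45D against C25D. Members could enter these fits through groups where they were high, so these counts support nothing by themselves. Library size only gave 1 call for C45D against C35D. It moved the median log2 fold change over all genes from 0.12 to -0.51 for T45D against C45D and from 0.04 to -0.28 for C60D against C45D, far less than the members moved. With C45D-3 and C60D-3 left out, chosen after seeing the data, 22 members were called for C60D against C45D, with 4 instead of 6 libraries. The median log2 fold change of C60D against C45D was -9.86 with DESeq2, -9.68 with no filter on counts and -9.68 in the fit of all 21 libraries, with 57 instead of 49 members in it.

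The replicate block changed no member's call for C35D against C25D or C60D against C45D, where libraries of one number deviated together. Mean correlations of same-numbered libraries in the other comparisons were -0.0552 for T35D and C35D, -0.0942 for T45D and C45D and -0.193 for T60D and C60D. They were -0.0605 for C45D and C35D and -0.0135 for C45D and C25D. There the block gave a median of -6.86 for T45D against C45D, 0 calls for C45D against C35D and 34 for C45D against C25D, and no calls for the heat comparisons.

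With each library left out in turn, the number of members called ranged from 0 to 16 for C35D against C25D, 0 to 15 for C45D against C35D, 44 to 55 for C60D against C45D, 28 to 46 for C45D against C25D, 0 to 0 for T35D against C35D, 0 to 40 for T45D against C45D, 0 to 33 for T60D against C60D and 0 to 33 for the difference of the heat effects. Median log2 fold changes ranged from -2.77 to -1.22 (C35D against C25D), 0.91 to 2.5 (C45D against C35D), -11.00 to -9.35 (C60D against C45D), -0.46 to 0.085 (C45D against C25D), -0.29 to 2.11 (T35D against C35D), -9.65 to -2.25 (T45D against C45D) and 4.89 to 10.05 (T60D against C60D). Without C25D-2 or C45D-2 the median of C45D against C25D turned to 0.0087 or 0.085. Without T35D-1 the T35D against C35D values turned to -0.29 for the median, -0.38 for cryaa, -0.81 for cryaba, -0.29 for cryba4, -0.80 for crygmx and -0.19 for crygn2. Over the 6 libraries left out, these ran up to 1.94 for cryaa, 2.63 for cryaba, 1.98 for cryba4, 1.94 for crygmx and 2.14 for crygn2. Of all single-gene fold changes, these 5 genes included, 161 of 169 settings with all libraries and 127 of 150 with a library left out kept both direction and side of the threshold.

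As a share of total FPKM the mean was 1.65% in C25D, 1.34% in C45D and 0.00112% in C60D, and as a share of counts outside the 100 most abundant genes 1.35%, 1.28% and 0.00180%. In the 7 libraries low in crystallin 3 counts stand for up to 0.233 CPM, and most members could not be measured.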
